A study of Homo sapiens with 4 samples.

Results

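Potassium channel genes were taken from the protein-coding genes whose symbols begin with KCN. The set holds 94 of the 20162 protein-coding genes of the annotation, and 1 gene with this prefix was left out by the rule. The promoter of each gene was the canonical start site with 1000 bp on either side, in hg19. A promoter was counted as hit when at least 1 bp of it lay in a region of the list of new methylation peaks, and 42 of the 94 promoters were hit. The genes were selected by name and not by a measured value, although earlier results of these data were known. The peaks came from the human embryonic kidney cell line HEK293, transiently transfected with dCas9-SunTag (dCS), an sgRNA against the CpG island of ISG15, and the wild type effector Ab-3A3L, in which the C-terminal domains of DNMT3A and DNMT3L are joined to the antibody that binds the SunTag. After 3 days the cells carrying all plasmids were sorted, and their sheared DNA was enriched for methylated fragments by an MBD2 pulldown and sequenced (MBD-seq). New peaks are regions that the authors listed as gained over untreated cells. Those cells received no plasmid, so transfection and the methyltransferase cannot be told apart from this list alone. There was 1 library per condition and 1 of the 4 libraries was analysed here, so no value has a replicate and none was tested. The libraries of the untreated cells and of the K844E and R887E effectors were not analysed here.

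The list held 12864 peaks with a median fold of 7.45 over background. No new peak was listed at the promoter of ISG15, the locus addressed by the sgRNA. In the paper, targeted bisulfite sequencing found this region unmethylated in untreated HEK293 cells. With dCS and wild type Ab-3A3L it was highly methylated, so the missing peak there does not mean missing methylation. A promoter without a listed peak is not an unmethylated promoter, because it may have carried methylation already in untreated cells or may have stayed below the threshold of the peak caller. Binomial intervals below are exact 95% intervals and cover counting error only.

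Potassium channels let potassium ions leave or enter the cell and set the resting potential and the end of each action potential. The pore is built from subunits of a few architectures. Voltage-gated subunits (KCNA, KCNB, KCNC, KCND, KCNH and KCNQ) open on depolarisation, silent subunits (KCNF, KCNG, KCNS and KCNV) only modify them, inward rectifiers (KCNJ) hold the membrane near its resting potential, and two-pore domain channels (KCNK) carry background currents. Further pore subunits respond to intracellular calcium or sodium (KCNMA, KCNN and KCNT), and KCNU was placed in their class by symbol only. Auxiliary proteins (KCNAB, KCNE, KCNIP, KCNMB and KCNRG) change the gating or surface level of the pores. Many of these genes are used mainly in neurons, heart, muscle or glands, and CpG-rich promoters of such genes can be silenced by DNA methylation.

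The sequences of 4 CpG-rich promoters, 2 with a new peak and 2 without, show how the CpGs were spaced, each as 200 bases of hg19 read 5′ to 3′ on the strand of the gene, with every CpG in capitals. The first 2 windows are centred on the summits of strong new peaks that lay upstream of the start site, at KCNMB4 (chr12:70759480-70759679, plus strand, 25 CpGs) and KCNJ5 (chr11:128760470-128760669, plus strand, 19 CpGs).
KCNMB4: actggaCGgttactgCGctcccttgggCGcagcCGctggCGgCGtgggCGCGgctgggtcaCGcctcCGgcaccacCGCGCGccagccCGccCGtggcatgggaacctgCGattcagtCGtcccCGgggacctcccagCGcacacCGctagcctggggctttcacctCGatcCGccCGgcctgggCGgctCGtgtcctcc
KCNJ5: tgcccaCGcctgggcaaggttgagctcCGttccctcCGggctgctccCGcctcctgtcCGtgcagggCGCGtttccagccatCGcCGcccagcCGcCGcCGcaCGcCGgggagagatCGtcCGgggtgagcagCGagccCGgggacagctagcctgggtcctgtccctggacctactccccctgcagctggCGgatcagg
The next 2 windows end at the base before the start sites of promoters that had no listed peak although they held more CpGs (201 for KCNA3 and 192 for KCNA7, against 180 for KCNMB4 and 109 for KCNJ5), KCNA3 (chr1:111217563-111217762, minus strand, 29 CpGs) and KCNA7 (chr19:49575957-49576156, minus strand, 30 CpGs).
KCNA3: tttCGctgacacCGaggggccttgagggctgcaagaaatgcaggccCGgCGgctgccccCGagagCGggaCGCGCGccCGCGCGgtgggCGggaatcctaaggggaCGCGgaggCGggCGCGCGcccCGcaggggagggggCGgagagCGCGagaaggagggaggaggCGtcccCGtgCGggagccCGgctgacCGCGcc
KCNA7: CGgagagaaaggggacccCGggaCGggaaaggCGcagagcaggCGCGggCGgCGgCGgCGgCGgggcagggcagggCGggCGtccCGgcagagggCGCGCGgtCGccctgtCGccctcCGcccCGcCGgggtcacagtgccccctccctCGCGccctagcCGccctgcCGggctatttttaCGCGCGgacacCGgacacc
Just before the start site, the 200 bases held 24 CpGs at KCNMB4 (chr12:70759870-70760069) and 22 at KCNG2 (chr18:77557738-77557937), which had no peak. As far upstream as the KCNMB4 summit, where KCNMB4 held 25, the windows of the same length held 14 CpGs at KCNA3 and 4 at KCNG2. The window before the start of KCNK2, also without a peak, held 6 (chr1:215255880-215256079), although its whole promoter held 146.

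First, the potassium channel promoters were compared with all protein-coding promoters. A new peak was present at 42 of 94 potassium channel promoters, or 44.7% (interval 34.4% to 55.3%). Over all 20162 promoters the share was 41.6%, which lay within that interval. The promoters were then placed in 10 classes of equal size by their number of CpGs, and the share of all promoters in each class was applied to the members. This gave 43.8 promoters with a peak, against the 42 observed. At this number of genes a difference from promoters of a like CpG number was not detectable.

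Over broad ranges of CpG number, the share with a new peak rose among the potassium channel promoters as among the rest. New peaks are expected where an MBD2 pulldown can see methylation, so these shares do not separate gained methylation from its detection. Single classes of members did not rise in order, with 2 of 5 at 64 to 82 CpGs and 0 of 4 at 83 to 96. None of the 29 members with up to 63 CpGs in the promoter had a new peak, which allows a share of up to 10.3%, and the share of all promoters in these classes was 2.41%. Between 64 and 125 CpGs, 10 of 25 members had one (interval 21.1% to 61.3%), beside 45.6% of all. From 126 CpGs upwards, 32 of 40 had one, or 80.0% (interval 64.4% to 90.9%), beside 75.8% of all. The median CpG number was 156.5 for the members with a peak and 57 for the 52 without. By type of promoter, judged from windows of 500 bp, 41 of 62 high CpG promoters of the family had a peak (66.1%, against 60.2% of all), 1 of 17 intermediate ones (5.88%, against 8.63%), and 0 of 15 low ones, which allows up to 20%, against 0.582% of all. The plot of shares by CpG class shows both increasing over the same range, with wide intervals for the members.

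**Figure D1:**
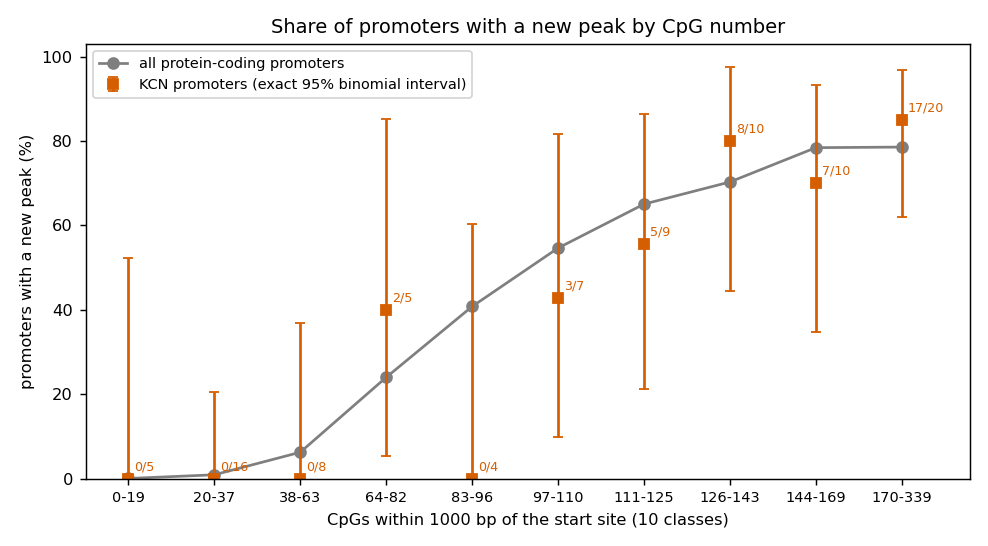
Share of promoters with a new peak (y axis, percent) in 10 classes of promoter CpG number (x axis), for the 94 potassium channel promoters with exact 95% binomial intervals and for all 20162 protein-coding promoters. The potassium channel share was 0 in the 3 lowest classes and in that of 83 to 96 CpGs with 4 members, and 17 of 20 members had a peak in the highest class, where the share of all promoters was 78.6%.

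Voltage-gated pore subunits made up the largest class, and 17 of 29 had a new peak, against 18.0 given by their CpG numbers. The highest fold in this class was that of KCNA2, a delayed rectifier subunit of axons, whose peak on chromosome 1 (111148914 to 111150155) had a fold of 14.7 over background from 24 fragments at the summit and took in 89.2% of the 111 CpGs of the promoter. The lowest was that of KCNQ5, a subunit of the M-current that dampens repetitive firing, with a fold of 2.94 from 19 fragments and 34.9% of its 166 CpGs in the peak. Within this class, 3 of the 8 KCNA pore subunits had a peak, against 4.94 given by their CpG numbers (37.5%, interval 8.52% to 75.5%), an interval that holds the 61.7% of promoters with like CpG numbers.

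The silent modifier subunits, which form no channel on their own, had a new peak at 4 of 10 promoters, against 5.26 from their CpG numbers. Their folds were low and ranged from 2.67 at KCNG3 to 5.81 at KCNS3, both modifiers of voltage-gated channels. The KCNG3 peak held 35 fragments at its summit and the KCNS3 peak 15. The smaller fold of KCNG3 thus stood on more fragments, over a background rate of 12.5 fragments against 1.76 at KCNS3.

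Among the inward rectifiers, 6 of 15 had a new peak, against 5.33 from their CpG numbers, and 6 of the 9 without one had 36 CpGs or fewer. Their 6 peaks had a median fold of 10.3, the highest of the role classes. The interval of this median, 6.23 to 14.3, also held the medians of the voltage-gated (7.54) and two-pore domain (7.26) classes. The highest of them, KCNJ2, encodes the channel that stabilises the resting potential of heart and skeletal muscle. Its peak on chromosome 17 (68164938 to 68165951) had a fold of 14.3 from 22 fragments and held 77.3% of the 119 promoter CpGs. KCNJ5, a G protein-gated channel of the heart atrium and the adrenal cortex, had a fold of 13.0 from 20 fragments on chromosome 11 (128760265 to 128761161), and KCNJ4, another rectifier of the KCNJ2 type, had a fold of 11.9 from 25 fragments on chromosome 22 (38850448 to 38851238). At the lower end stood KCNJ3, the usual partner of KCNJ5 in the atrium, with a fold of 6.23 from 13 fragments and 31.1% of its CpGs in the peak.

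Two-pore domain channels had a new peak at 9 of 15 promoters, against 8.64 from their CpG numbers. The folds ran from 2.45 to 11.8. The highest was that of KCNK1, a weak inward rectifier of this architecture, with 18 fragments and 91.8% of its 134 promoter CpGs in the peak. KCNK4, a mechanosensitive channel of neurons, had the lowest fold of all 42 members with a peak and also the most fragments, 38, over a background rate of 14.9.

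Calcium- or sodium-activated pore subunits, with KCNU1 counted among them, had a new peak at 3 of 8 promoters (2.80 from their CpG numbers). Auxiliary proteins had one at 3 of 17 (3.76 from their CpG numbers). KCNMA1, the pore of the large-conductance calcium-activated channel, had a fold of 8.68, and KCNT1, a sodium-activated channel, a fold of 3.13. KCNMB4, an auxiliary subunit of the KCNMA1 channel in the brain, had the highest fold of all members, 14.9 from 23 fragments, and its peak on chromosome 12 (70759354 to 70761089) held 172 of the 180 CpGs of the promoter. KCNIP1, a calcium-binding partner of the KCND channels, had the lowest fold of the 3 auxiliary genes, 5.23. The KCNMA1 and KCNMB4 promoters, with 234 and 180 CpGs, were both hit, as were 78.6% of all promoters in their CpG class. KCNMB1, KCNMB2 and KCNMB3, with 28, 30 and 28 CpGs, were not hit, in a class where 0.927% of all promoters were.

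The low count of auxiliary genes went with their CpG content, as 10 of the 17 had 63 CpGs or fewer. Among members with 64 CpGs or more the counts were 17 of 26 voltage-gated, 4 of 7 silent modifier, 6 of 9 inward rectifier, 9 of 12 two-pore domain, 3 of 4 calcium- or sodium-activated and 3 of 7 auxiliary promoters. The interval of every one of these 6 shares held the share of promoters with like CpG numbers. Split by the letter that follows KCN, 14 of 19 letters had at least 1 member with a peak, and the 5 without (E, F, R, U and V) held 10 members. All 19 intervals, most of them wide with 1 to 15 members, held the share given by the CpG numbers, as the plot of counts by letter shows.

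**Figure D2:**
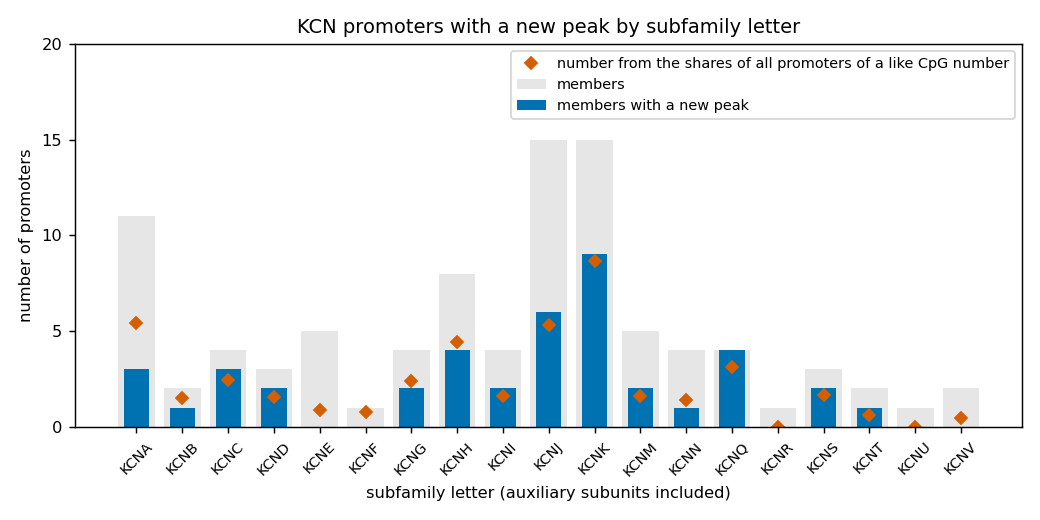
Number of promoters (y axis) for each letter after KCN (x axis), with blue bars for members with a new peak, grey bars for all members and diamonds for the number given by promoters of a like CpG number. The widest gap was at KCNA, with 3 of 11 against 5.42, and the 15 KCNK genes had 9 against 8.64.

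Several CpG-rich promoters had no listed peak. In the classes of 144 to 169 CpGs and from 170 CpGs upwards, 78.4% and 78.6% of all promoters had a peak. Among the members in these classes, 24 of 30 had a peak and 6 did not, a share near that of all promoters. These were KCNA3 (201 CpGs), the main voltage-gated channel of T lymphocytes, KCNA7 (192), KCNG2 (184), KCNJ12 (163), KCNF1 (158) and KCNK2 (146), a background channel gated by stretch and lipids. The nearest new peak lay 67407 bp from the start site of KCNA3 and was the one at KCNA2, its neighbour on chromosome 1. It lay 12594 bp away for KCNA7, 20151 bp for KCNJ12, 99007 bp for KCNF1, 152809 bp for KCNG2 and 484588 bp for KCNK2. No peak close to the promoter had therefore been missed by the window for these 6 genes. KCNJ12 is nearly identical in sequence to KCNJ18, so reads of the pair cannot always be told apart and its value is uncertain. Among the members with fewer CpGs, none in the 3 lowest classes was hit, and the hit promoters with the fewest CpGs were KCNJ8 (72 CpGs, fold 6.83) and KCNJ10 (81 CpGs, fold 8.69), named after their values were seen. Both members on chromosome X, KCND1 (41 CpGs) and KCNE5 (98 CpGs), lacked a peak, where 8.17% of the X-linked promoters had one. KCNAB3, which shares its promoter with another protein-coding start, had none.

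**Figure D3:**
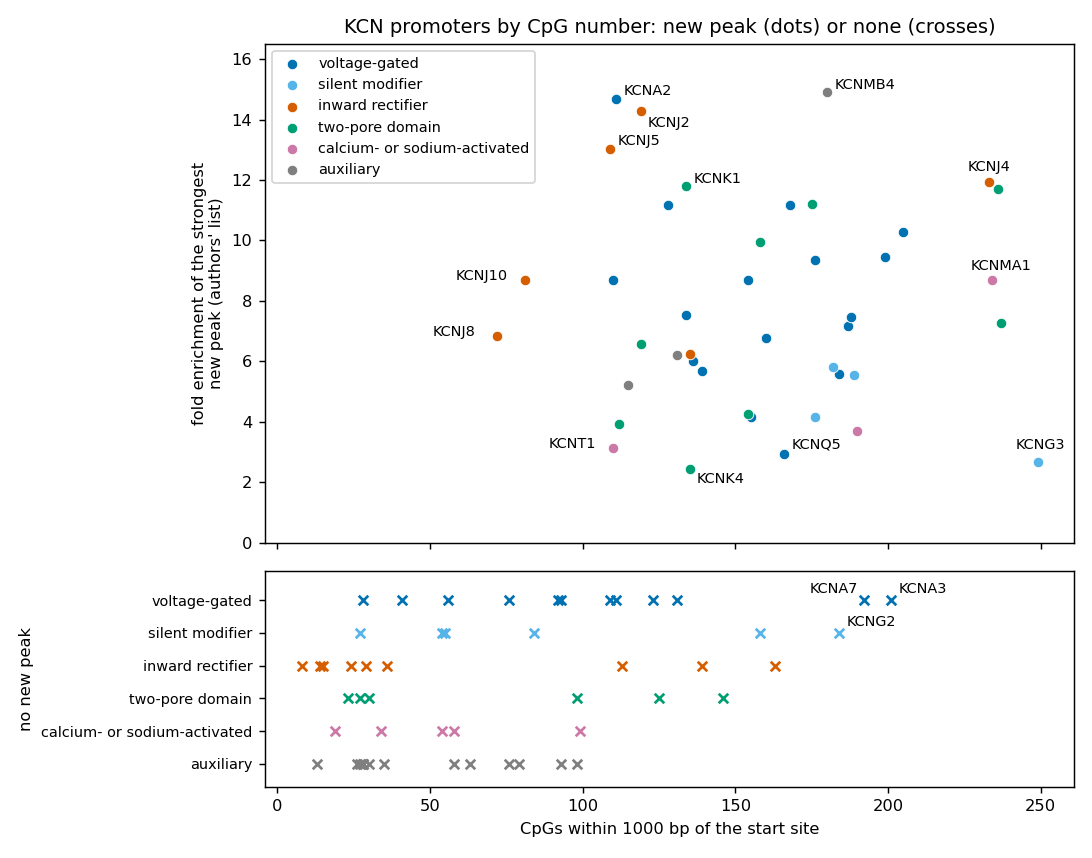
Fold over background of the strongest new peak (y axis) against the number of CpGs in the promoter (x axis) for the 42 potassium channel promoters with a peak, with the 52 without a peak as crosses in the lower panel and colours for the role classes. Members with a peak held 72 to 249 CpGs, and their folds ran from 2.45 to 14.9 with high and low values across that range.

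Next, the strength of the peaks was examined. The fold is the ratio of fragments at the summit to a background, and the strongest peak stood for each promoter. Its median was 7.22 for the 42 members (interval of the median 6.02 to 8.69), against 8.26 for the 8386 promoters with a peak. Restricted to promoters with at least 126 CpGs, the medians were 7.22 (5.70 to 9.44) and 8.69. A fold of at least 10 was reached by 11 of the 94 members, or 11.7%, against 13.3% of all promoters, and a fold of at least the median of the list by 20, or 21.3% (interval 13.5% to 30.9%), against 25.6%. These intervals held the values of all promoters, so a lower fold of the family was not resolved.

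The number of fragments and the background behind each fold, which were recovered from the listed fold and p-value, were less alike. The members had a median of 21.5 fragments at the summit (interval 18 to 24), against 17 for all promoters with a peak. Their median background rate was 1.598 (0.88 to 2.98), against 0.72, where the lowest rate, that of the whole genome, was 0.611. In promoters with at least 126 CpGs the members had 21.5 fragments against 19, with 19 inside the interval of 18 to 24, and a background rate of 1.76 (0.88 to 3.51) against 0.86, just below that interval. At the median, the member peaks thus held no fewer fragments than other promoter peaks and stood on a higher background. In promoters with at least 126 CpGs the gap in background only just cleared the interval, and CpG number was not matched more closely.

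This contrast also ran through the family. The 22 members with a fold under the median of the list had a median of 24 fragments over a rate of 4.17, and the 20 at or above it had 18.5 fragments over a rate of 0.65. Fold and rate are linked by construction, so this is a description of the list. By role, the median rate was 0.611 for inward rectifiers and auxiliary genes, 1.46 for voltage-gated, 1.74 for two-pore domain, 5.57 for silent modifier and 5.79 for calcium- or sodium-activated genes. The silent modifier median rests on 4 peaks, and those of the auxiliary and the calcium- or sodium-activated genes on 3 each. Where the background was high, as at KCNK4, KCNG3 and KCNT1, the fragments at the summit numbered 35 to 38, more than at KCNMB4 with the highest fold. Whether the control DNA at these promoters held methylation was not tested.

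**Figure D4:**
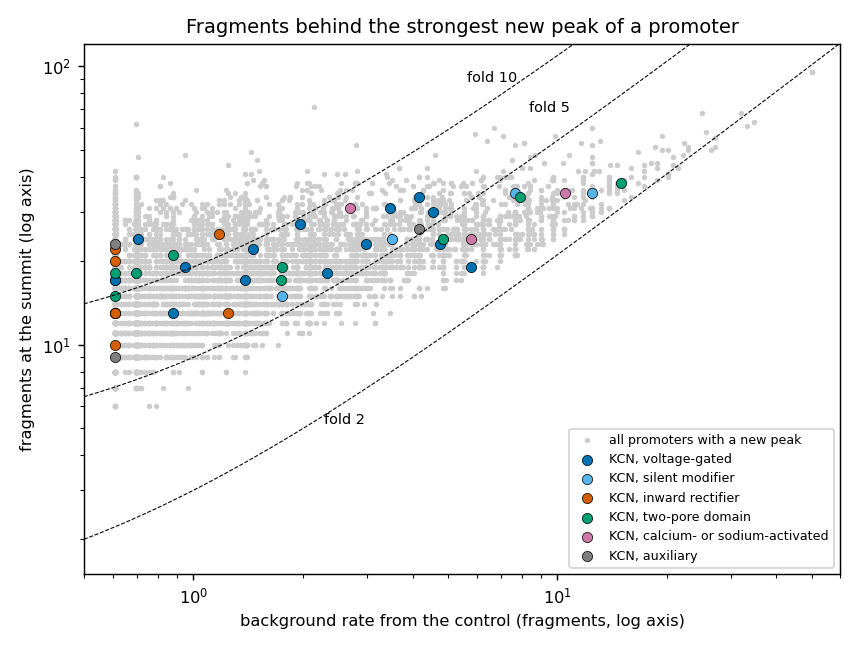
Fragments at the summit (y axis, log scale) against the background rate in fragments (x axis, log scale) for the strongest new peak of each promoter, with the 42 potassium channel promoters coloured by role over all 8386 protein-coding promoters with a peak in grey, and dashed lines of equal fold at 2, 5 and 10. Members with the lowest folds, such as KCNK4 with 38 fragments over a rate of 14.9, lie to the right, and KCNMB4 with 23 fragments over 0.611 lies at the left edge.

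The width and CpG content of the peaks were similar to those elsewhere. The median width was 701.5 bp (interval 488 to 897) against 594 bp, and in promoters with at least 126 CpGs 701.5 bp against 735 bp. CpG density inside the peaks was 10.7 per 100 bp at the median, against 10.6. The peaks took in a median of 54.8% of the CpGs of the promoter, ranging from 13.0% to 95.6%, and the median over all promoters with a peak was also 54.8%.

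The position of the peaks relative to the start site differed more. Distances are signed, with negative values upstream. The summit lay downstream of the start site in 23 of 42 members, or 54.8% (interval 38.7% to 70.2%), against 70.5% of all promoters with a peak, just outside that interval. The median summit position was 42 bp (interval -220 to 259), against 165 bp. The median absolute distance was 418 bp (286 to 511), against 279 bp. In promoters with at least 126 CpGs, 17 of 32 members had a downstream summit (53.1%, interval 34.7% to 70.9%), against 70.5%, which lay inside this interval, and the median absolute distance was 452.5 bp (386 to 624) against 365 bp. The direction was therefore the same in promoters with at least 126 CpGs, and the smaller number left the share of downstream summits unresolved. CpG number was not matched within this range. The class from 170 CpGs upwards held 17 of the 32 members with a peak, against 1577 of the 4577 promoters with one.

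The start site itself lay in a peak at 27 of the 94 promoters (28.7%, against 26.8% of all), or 64.3% of those with a peak, as over all promoters with a peak (64.3%). At 500 bp upstream, 16 of 42 members lay in a peak (38.1%, interval 23.6% to 54.4%), against 19.7% of all promoters with a peak. Among promoters with at least 126 CpGs it was 12 of 32 (37.5%, interval 21.1% to 56.3%) against 28.3%, a smaller gap and inside the interval. At 500 bp downstream the shares were 42.9% and 46.8%. By annotation, 19 member summits lay upstream of the gene, 12 in the 5′ untranslated part, 7 in an intron and 4 in a coding exon. Summits at other promoters were not split in this way, so these counts only describe the members. Of the 5 highest folds, KCNA2 at -797 bp, KCNJ5 at -681 bp, KCNMB4 at -490 bp and KCNJ2 at -126 bp had upstream summits and KCNJ4 at 256 bp a downstream one.

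**Figure D5:**
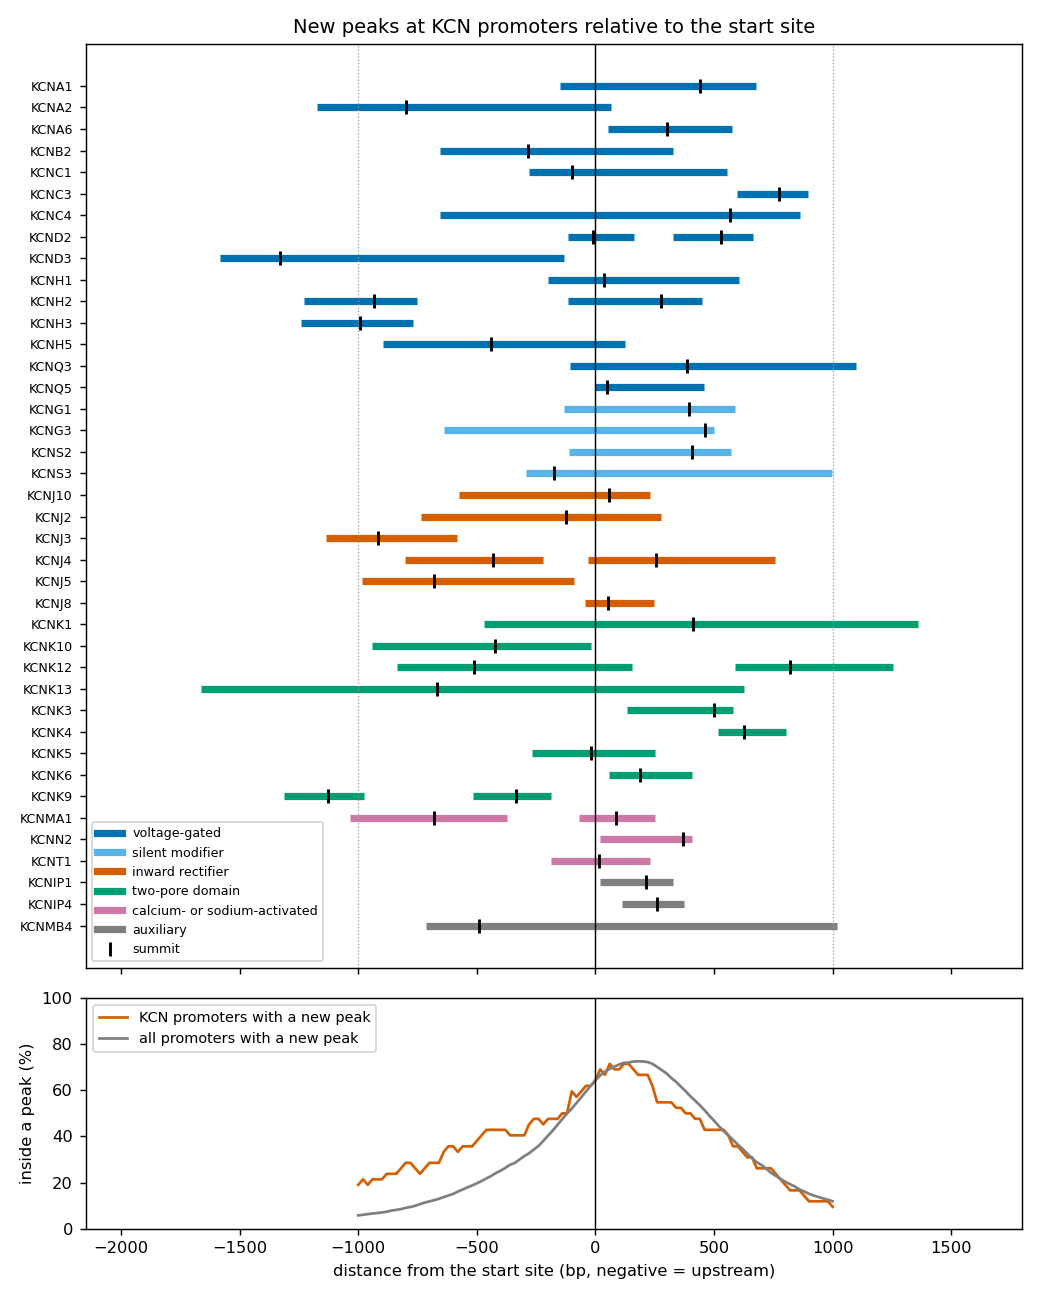
Extent of each new peak at 40 of the potassium channel promoters that have one, by distance from the start site in bp (x axis, negative upstream), with 1 row per gene coloured by role, the summit as a tick and dotted lines at the promoter ends; the lower panel gives the share of promoters with a peak that lie inside one at each distance (y axis, percent), for all 42 members with a peak and for all 8386 promoters with one. The start is inside a peak in 26 rows, 6 rows hold 2 peaks, and at -500 bp the shares are 38.1% and 19.7%.

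More than 1 peak was present at 7 members (7.45% of the 94, against 5.22% of all promoters), and each of these had 2, of which 6 are described. At KCNH2, which ends the cardiac action potential, peaks with folds of 11.2 and 6.45 had summits at -934 and 278 bp. KCND2, a transient A-type channel of dendrites, had folds of 7.54 at 528 bp and 6.12 at -9 bp. In KCNMA1 the folds were 8.68 and 8.17, at -681 and 85 bp. These pairs fell on the 2 sides of the start site, a description only, as pairs at other promoters were not compared. The same held for KCNJ4 (11.9 at 256 bp and 9.32 at -434 bp) and KCNK12 (11.7 at -511 bp and 5.996 at 819 bp). The exception was KCNK9, an acid-sensitive background channel, whose peaks were both upstream (7.26 at -1126 bp and 2.52 at -335 bp).

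Peaks away from the canonical start were then counted. When every annotated start of a gene was given the same window, 49 of 94 members had a peak, which adds 7 genes. The share was 52.1% (interval 41.6% to 62.5%), and the 44.1% of all promoters lay within that interval. Promoters of a like CpG number gave 46.0. Those with high folds included KCNAB1 (fold 10.04 at a start 170409 bp downstream of the canonical one), KCNE1 (8.46, 52606 bp downstream), KCNN1 (8.41 at -15814 bp) and KCNIP3 (7.37, 49381 bp downstream). Of these, KCNE1 and KCNAB1 encode auxiliary proteins of cardiac and Shaker-type channels, and their canonical promoters held 26 and 28 CpGs. Outside the promoter window, 12 member genes (12.8%, interval 6.77% to 21.2%) held peaks in the gene body, against 12.4% of all protein-coding genes. KCNT1 held 5 of them, with folds of up to 3.82, and no other gene more than 2.

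Neighbouring members were compared pair by pair, as a description without a background of other pairs. Of the 11 pairs of adjacent members with starts within 250000 bp, 1 pair had a peak at both promoters (KCNA6 and KCNA1), 2 at neither and 8 at 1 of them. In 6 of these 8 the promoter with more CpGs had the peak, for example KCNJ5 (109 CpGs) and not KCNJ1 (15 CpGs), which start 24060 bp apart. The exceptions were KCNA2 with 111 CpGs beside KCNA3 with 201, and KCNK5 with 119 beside KCNK17 with 125.

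Finally, 3 short motifs were searched on both strands in the 300 bases from 250 before the start. The GC box GGGCGG, the core of SP1 sites, was found in 37 of 42 members with a peak (88.1%) and 28 of 52 without (53.8%). Over all promoters it was found in 60.9%, in 82.8% of those with a peak and 45.4% of those without. Within high CpG promoters the member counts were 36 of 41 and 16 of 21, or 87.8% and 76.2%, beside 83.3% and 72.3% of all high CpG promoters. Most of the contrast thus went with CpG content, and GGGCGG itself contains a CpG. The TATA box TATAAA was found in 5 of 94 members (5.32%, against 9.801% of all), and the cyclic AMP response element TGACGTCA in 1 of 94 (1.06%, against 2.68%). A match of letters describes the sequence and does not show that a factor was bound.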

How the data were processed

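The MBD-seq peak list of HEK293 cells treated with dCS, the ISG15 sgRNA and wild type Ab-3A3L was analysed, 1 library without replicates. Per the methods and the labels, the authors aligned the reads with Bowtie2 (default settings, hg19), and the labels also name FastQC, deepTools and MACS2, whose settings and versions are not given in the sources used here. The deposited list gives, for each new peak over untreated cells, a score, a ratio or fold of the summit over background, −log10 p-values and −log10 q-values, and, as an other column, where in the peak the summit lies. The deposited score equals the −log10 q-value times 10 and was not used. The list gives no depth. Summits held a median of 18 fragments, which with the single library sets the precision.

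Fragments k and background rate were recovered from the deposited fold, taken as (k + 1)/(rate + 1), and the Poisson p-value, which was matched for all 12864 peaks within 0.000403 on the −log10 scale. Promoters used the canonical start in GENCODE release 44 lifted to GRCh37, and the 5′ end of the gene for 281 genes without one, none of them a member. Peaks overlapped by at least 1 bp, on chromosomes 1 to 22, X and Y. CpG classes were 10 classes of equal size over all promoters. Promoter types used windows of 500 bp with 55% GC and observed/expected ratios of 0.75 and 0.48. For a share of 0 the limit was 3 counts. Intervals of a median are order-statistic intervals at 95%.

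Members named are the 5 highest folds, the highest and lowest fold of each role class, promoters with more than 1 peak, the 3 lowest CpG classes with a peak and the 2 highest without, chromosome X, shared promoters, and up to 5 with a peak only at another start. Others named were chosen after their values were seen. The members and lists were chosen with earlier results of these data known. No test was run, and some genes and sequences are not reported here. The steps were tested on simulated data. Software was Python 3.11.15, numpy 2.4.6, pandas 2.3.3, scipy 1.17.1 and matplotlib 3.10.9.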

Additional observations from a re-analysis of the deposited data

How the results depend on the processing

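Of 85 recomputed values, 71 stayed within the counting interval of the reported value and 14 left it, each with fewer promoters because weaker peaks were dropped. With peaks of at least the median fold, the potassium channel share was 21.3% and with a −log10 q of at least 10 it was 25.5%, where 25.6% and 24.6% of all promoters had such a peak. At the median fold, letters G, I, N, S and T fell to 0% and K to 26.7%, voltage-gated genes to 34.5%, silent modifiers to 0% and two-pore domain genes to 26.7%, and of the other families CLCN fell to 0%, TRP and MCOLN to 19.2% and KCTD to 19.05%.

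The ratio of observed to like-CpG promoters was 0.960 and ranged from 0.742 (median fold) to 1.08 (high, intermediate and low CpG promoters in place of the 10 classes). Windows of 500 and 2000 bp gave 38 and 43 members, a summit inside the promoter 41, and 42 of 93 without shared promoters. No paired analysis was possible because each condition has 1 library, and no replicate could be left out. Depth limits each fold to the 9 to 38 fragments at the summit, and peaks below the threshold of the caller are not seen.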

Other observations

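Other ion channel families and the KCTD genes, fixed by symbol, were set beside the potassium channels. Genes with symbols beginning with CACN, the CACNG genes included, had a new peak at 16 of 26 promoters, against 13.8 given by their CpG numbers. Sodium channel genes (SCN) had one at 5 of 14, against 4.22. The pacemaker channels (HCN) had one at 3 of 4 promoters, against 2.90, and the cyclic nucleotide-gated channels (CNG) at 1 of 6, against 1.10. Chloride channels and transporters (CLCN) had one at 3 of 9, against 3.13, and the TRP channels with the lysosomal mucolipins (TRP and MCOLN) at 11 of 26, against 8.25. Of the KCTD genes, which encode cytosolic proteins with a domain akin to the tetramerisation domain of voltage-gated potassium channels, 12 of 21 had a peak, against 12.3. The 7 families together, with the KCTD genes included, had a peak at 51 of 106, or 48.1% (exact 95% binomial interval 38.3% to 58.0%). The CpG numbers gave 45.7 promoters, and the share of all protein-coding promoters was 41.6%. The interval holds both the 43.1% of promoters with like CpG numbers and the 44.7% of the potassium channel genes.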
